A study of Mus musculus with 36 samples.

Results

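Enteric glial cells (EGCs) grown from embryonic neurospheres were compared after 24 h in medium conditioned by colon tumors (TME-CM) and 24 h in medium conditioned by healthy colon (H-CM). The comparison rests on the 8 libraries whose titles name these media and this time, 4 for each medium, of 36 libraries in the series. The cells of all groups were wild type and came from digested intestines of C57BL/6J embryos, and were differentiated into EGCs in medium with serum. TME-CM was taken from overnight cultures of digested tumors that MC38 colon carcinoma cells had formed in the colon of mice, and H-CM from digested healthy colon handled the same way. The 4 unstimulated libraries of 24 h received neither medium and serve as background values. The culture is embryonic and was profiled in bulk, and the labels do not say whether the 4 libraries of a group came from separate cultures, so that p-values measure the spread between these libraries. In bulk RNA a lower level of a cell type's genes can come from fewer such cells or from less RNA in each, and these cannot be told apart.

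EGCs surround the neurons of the gut wall and are marked by Sox10 and S100b. In inflamed tissue, glia respond to interleukin 1 and related cytokines through NF-kB, a transcription factor held back by its own target Nfkbia, and to interleukin 6 through STAT3 and C/EBP factors, which drive acute phase genes. Interferon-gamma acts through STAT and IRF factors on genes of antigen presentation, and shortage of oxygen acts through HIF factors on glycolytic enzymes and glucose and lactate carriers.

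Libraries were made with the QuantSeq kit, which primes at the 3′ ends of transcripts. Levels are given as CPM, counts per 1000000 counts of the TMM-scaled library size, and changes as the log2 fold change (log2FC). Total counts lay between 2895250 and 6296650 in the TME-CM libraries and between 1608020 and 7552510 in the H-CM libraries. The share of counts from mitochondrially encoded genes was 2.47% ± 0.386 (SD, n = 4) for TME-CM and 3.06% ± 0.266 for H-CM (two-sided exact permutation test, p = 0.0286, adjusted over 5 library measures p = 0.0714). Libraries were not equally alike. TME-CM replicate 2 correlated with the other TME-CM libraries at 0.919 to 0.921 (Pearson's r of log2 CPM across genes, which are not independent replicates), against 0.964 to 0.972 among those 3, and 35.1% of its counts fell on the single entry Yam1. H-CM replicate 1 held the highest of the 4 H-CM values in 61.8% of the genes that rose with TME-CM and in 30.1% of the genes that did not pass the test. It was the lowest for 48.4% of the genes that were lower, a share that was not counted among the genes that did not pass. Each of the 8 libraries was left out in turn (leave-one-out fits). In place of 686 genes, the test below then gave 417 without H-CM replicate 3, 451 without H-CM replicate 2, 737 without TME-CM replicate 2 and 776 without H-CM replicate 1. The value without a library is given where this ended the call of a gene described with values or moved its fold by over 1.5 times. For a gene named only as a called member of a list, the number of these 8 fits that ended its call is given, with the highest adjusted p and the library left out there, and a call named without such a number was kept in all 8.

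Of 12713 genes tested at 24 h, 349 (2.75%) were higher and 337 (2.65%) lower in TME-CM than in H-CM EGCs, together 5.40% (edgeR quasi-likelihood test, adjusted p under 0.05). The median log2FC over all genes tested was 0.00. Among the 349 higher genes the median was 1.15, with 207 genes changed at least 2-fold, 79 at least 4-fold and 14 at least 16-fold. Among the 337 lower genes it was −0.99, with 164, 37 and 4 genes past the same folds. The TME-CM and H-CM libraries did not overlap for 621 of the 686 genes, and for 11.2% of all genes tested. Chemokine ligands, Lcn2 and Timp1 made up 15 of the 686 genes. In 65 gene lists that cover pathways and cell types, 192 of the called genes appeared, and 494 lay outside every list. The share of 5.40% over all genes tested is the background for each count of called list members below. Fitting all 36 libraries in one model, which adds the 24 libraries of 6 h and 12 h to the estimate of the spread, left 71 genes, 60 higher and 11 lower. The 6 h libraries were shallower, with a median total of 1526580 counts and a lowest of 13518, against 5465090 and 1608020 at 24 h. What this did to the estimate was not tested. In the model of all 36 libraries, 73 of the 109 called genes described with values here lost their call. The 36 that kept their call there include Saa3, Cebpd, Nos2, Mt2, Sod2, Ier3, Fth1, Slc2a1, Dcn, Nog, Kcnmb2 and Nptx1. H-CM itself changed 258 genes (2.03%) relative to unstimulated EGCs. This comparison shares its H-CM libraries with the one described here, so its values are only set beside those of single genes.

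**Figure D1:**
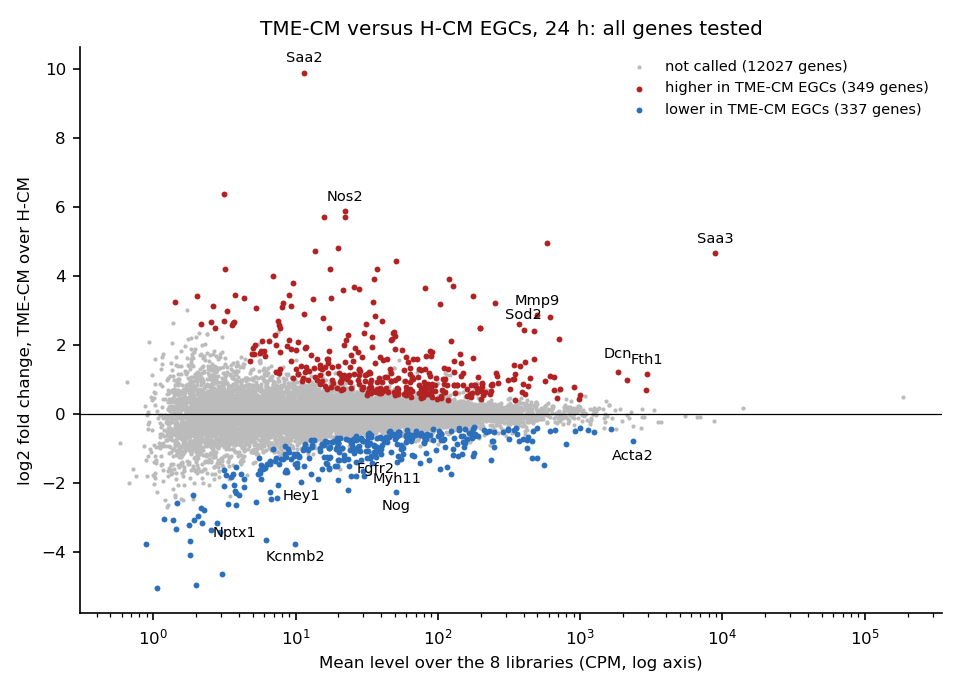
Each point is one of the 12713 genes tested, with the mean level over the 8 libraries on a logarithmic axis (CPM) and the log2FC of TME-CM over H-CM on the linear axis. Red points are the 349 genes called higher and blue points the 337 called lower, and they span the whole range of levels up to Saa3 and Acta2. The height of Saa2 rests on the prior count of the fit, since its H-CM counts are 0.

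The acute phase genes had the largest median change of the 65 lists. All 7 of the 13 listed genes that were tested rose, with a median log2FC of 4.21 (0.00 over all genes tested) that was 4.95 without H-CM replicate 1. The median of 4.21 is that of Hp whether Saa2 enters at its fitted value or at the bound given below. The groups did not overlap for any of the 7, and for 11.2% of all genes tested. Saa1, Saa2, Hp and Steap4 passed the filter on low counts only through TME-CM libraries, so a rise was a condition of their being tested. The count of 7 and the median rest partly on this filter. Saa3, whose product is an acute phase apolipoprotein made outside the liver, lies at chr7:46711998-46715700 (minus strand) in GRCm38, the build of all positions given here, and was the most abundant gene that rose. It measured 20112, 16959, 17696 and 13874 CPM in TME-CM replicates 1 to 4, against 1815, 392, 222 and 270.4 CPM in the H-CM replicates (log2FC 4.67, SE 0.70, adjusted p = 0.00337, edgeR). Every TME-CM library was above every H-CM library, and H-CM replicate 1 stood above the other H-CM libraries. The log2FC was 5.86 without that library. Unstimulated EGCs had 33.4 ± 6.93 CPM.

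Saa1 (66.0, 38.0, 34.3 and 36.7 CPM against 2.04, 0.549, 0.493 and 0) and Saa2 (31.4, 25.7, 16.2 and 18.7 CPM against no count in any H-CM library) are near-identical neighbors whose shared reads were discarded, so their split is uncertain. Saa1 had a log2FC of 5.70 (adjusted p = 6.36e-08, edgeR), and 6.53 without H-CM replicate 1. Taking 3 counts per library as the upper limit of a count of 0, Saa2 was at least 27.9-fold higher. Hp, which encodes the hemoglobin scavenger haptoglobin, measured 49.1, 18.8, 32.3 and 32.7 CPM against 3.396, 1.10, 1.85 and 0 (log2FC 4.21, SE 0.41, adjusted p = 1.14e-06, edgeR). Lbp, the carrier of bacterial lipopolysaccharide, measured 49.3, 48.4, 62.0 and 48.3 CPM against 7.02, 3.29, 3.33 and 2.85 (log2FC 3.63, SE 0.27, adjusted p = 2.02e-08, edgeR). Neither gene overlapped between the groups. Cp, the copper-carrying ferroxidase ceruloplasmin, had 324 ± 82.3 CPM against 29.6 ± 19.2 (log2FC 3.43), with exon bases shared with Hps3 on the other strand. Steap4, a metalloreductase, had 47.5 ± 18.4 CPM against 3.66 ± 4.52 (log2FC 3.68, and 4.95 without H-CM replicate 1). H-CM raised Hp, Cp and Lbp over unstimulated EGCs too, by 4.73, 2.64 and 1.88 on the log2 scale (adjusted p = 0.00572, 0.00807 and 0.00491, edgeR).

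The bases before the start of Saa3 are shown because this gene gave the largest amount of RNA in the response. They come from RefSeq (GRCm38.p6, chr7:46715701-46715850, minus strand) and are written 5′ to 3′ up to the first annotated exon. Capitals mark an ISRE-like match (GAAANNGAAA, the element read by IRF and STAT factors) and a match to the C/EBP motif (TTGCNNAA, here on the other strand).
Saa3: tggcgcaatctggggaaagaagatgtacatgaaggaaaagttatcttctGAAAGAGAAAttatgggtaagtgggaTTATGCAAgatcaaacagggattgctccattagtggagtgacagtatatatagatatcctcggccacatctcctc

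Beyond this list, Chil1, which encodes a chitinase-like protein of inflamed tissue, went from 1.36, 0.549, 0.247 and 0 CPM in H-CM to 31.1, 41.9, 34.8 and 15.99 CPM in TME-CM EGCs (log2FC 5.70, SE 0.48, adjusted p = 9.51e-08, edgeR), and its log2FC was 6.46 without H-CM replicate 1. Of 14 complement genes tested (20 listed), 4 rose (C1ra, C1s1, C3 and Serping1) and none fell, with a median of 0.65. The call of C1s1 ended in 2 leave-one-out fits (adjusted p up to 0.065 without H-CM replicate 3, edgeR). The median was 0.109 without TME-CM replicate 2 and 1.09 without H-CM replicate 2. C3, the protein on which all complement pathways converge, measured 192, 81.1, 191 and 141 CPM against 31.0, 7.14, 5.42 and 3.99 (log2FC 3.64, SE 0.57, adjusted p = 0.00356, edgeR). Its groups did not overlap, and the log2FC was 4.71 without H-CM replicate 1. C1ra, a protease of the first complement component, had 35.1 ± 6.12 CPM against 8.48 ± 4.15 (log2FC 1.98, adjusted p = 0.000324, edgeR).

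Of 17 genes tested on the list of NF-kB subunits and feedback genes, 5 rose (Nfkbia, Nfkbiz, Tnip1, Bcl3 and Zc3h12a) and none fell (median 0.73). The feedback inhibitors Tnfaip3 and Cyld did not pass the test (log2FC values 1.27 and 0.19, adjusted p = 0.41 and 0.633, edgeR). Nfkbia, the inhibitor that retains NF-kB in the cytoplasm, lies at chr12:55489410-55492647 (minus strand) and measured 474, 413, 423 and 494 CPM against 265, 224, 203 and 205 (log2FC 1.01, SE 0.12, adjusted p = 1.24e-05, edgeR). The 4 libraries of each medium lay close together and the groups did not overlap. Nfkbiz, a nuclear co-activator of secondary NF-kB targets, measured 161, 101, 138 and 145 CPM against 59.1, 34.6, 29.8 and 30.8 (log2FC 1.82, SE 0.19, adjusted p = 3.93e-06, edgeR). Bcl3, another nuclear partner of NF-kB, had 56.9 ± 15.5 CPM against 12.2 ± 6.02 (log2FC 2.22), with exon bases shared with Gm16175 on the other strand. Each of these 3 genes also rose from unstimulated to H-CM EGCs, by 0.73, 1.28 and 1.49 on the log2 scale. On the list of Toll-like and IL-1 receptor signaling, 4 of 17 genes tested rose (Tlr2, Il1r1, Il1rap and Il1rn). Tlr2 was lost in 2 leave-one-out fits and Il1rn in 1 (adjusted p up to 0.0603 and 0.0576 without H-CM replicate 3, edgeR). Il1r1, the receptor that carries the interleukin 1 signal, measured 65.8, 42.8, 69.2 and 66.6 CPM against 25.1, 24.3, 14.2 and 19.97 (log2FC 1.57, SE 0.20, adjusted p = 2.24e-05, edgeR), with no overlap. It did not pass the test between H-CM and unstimulated EGCs (log2FC 0.13, adjusted p = 0.919, edgeR).

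The bases before the start of Nfkbia are shown as an example of a promoter with a match to the kB motif (GGGNNTTTCC, the element read by NF-kB), marked in capitals on the other strand. They are RefSeq GRCm38.p6, chr12:55492648-55492797, minus strand.
Nfkbia: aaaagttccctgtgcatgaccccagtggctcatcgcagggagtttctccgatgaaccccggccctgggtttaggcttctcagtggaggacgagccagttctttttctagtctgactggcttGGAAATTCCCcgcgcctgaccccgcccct

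Of 17 genes tested on the list of the IL-6 family and STAT3, 6 rose (Il6, Lif, Osmr, Socs3, Pim1 and Cebpd), none fell, and the median was 0.66. Il6 itself was expressed at a low level, with 25.9, 10.9, 10.7 and 11.99 CPM in TME-CM and 3.62, 2.01, 0.37 and 0 CPM in H-CM EGCs (log2FC 3.22, SE 0.62, adjusted p = 0.00294, edgeR), and TME-CM replicate 1 lay well above the other TME-CM libraries. The groups did not overlap, and the log2FC was 3.99 without H-CM replicate 1. Socs3, the inhibitor that STAT3 induces against itself, measured 95.6, 70.7, 72.4 and 68.3 CPM against 23.1, 19.2, 12.3 and 15.4 (log2FC 2.13, SE 0.23, adjusted p = 3.93e-06, edgeR). Cebpd, a C/EBP factor induced in acute inflammation, measured 338, 332, 321 and 363 CPM against 106, 50.9, 39.0 and 41.7 (log2FC 2.50, SE 0.25, adjusted p = 1.24e-05, edgeR), with all TME-CM libraries within a narrow range. Part of its exon bases are shared with Spidr on the other strand. Of 18 genes of prostaglandin synthesis and response, 2 rose (11.1% against 5.40% of all genes tested), and both belong to the inducible route to prostaglandin E2. Ptgs2, the inducible cyclooxygenase, measured 573, 393, 519 and 519 CPM against 277, 169, 126 and 185 (log2FC 1.41, SE 0.19, adjusted p = 0.000101, edgeR). Ptges, the synthase that acts after it, measured 41.3, 32.7, 39.9 and 41.9 CPM against 14.7, 4.76, 6.41 and 6.28 (log2FC 2.28, SE 0.28, adjusted p = 1.87e-05, edgeR). Both separated the groups, and neither passed the test between H-CM and unstimulated EGCs (log2FC values −0.03 and 0.65, adjusted p = 0.985 and 0.45, edgeR).

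Some genes of the response to interferon-gamma and of antigen presentation on MHC class I were higher in TME-CM EGCs, with TME-CM replicate 1 the lowest TME-CM library for most of those named below. Of 14 interferon-gamma-induced GTPases and regulators tested, 6 rose (Gbp2, Gbp3, Gbp5, Iigp1, Irf1 and Ifngr2), and of 15 genes of MHC class I presentation 9 rose (B2m, H2-K1, H2-D1, Tap1, Tapbp, Psmb8, Psmb9, Psmb10 and Erap1). No member of either list fell, and the medians were 1.21 and 0.91. Of 8 genes of MHC class II and costimulation tested of 11 listed, H2-Ab1 and Cd40 rose (median 1.55), while Ciita, the class II transactivator, and the costimulatory Cd86 had no count in any of the 8 libraries. Several of these calls were lost without 1 library. Tap1 and Tapbp were each lost in 6 leave-one-out fits (adjusted p up to 0.1001 without H-CM replicate 2 and 0.142 without H-CM replicate 3, edgeR), in the fit of only the 2 media and with the share of counts on Yam1 as a covariate. Erap1 was lost in 5 leave-one-out fits (adjusted p up to 0.157 without TME-CM replicate 4, edgeR), Ifngr2 in 2 (0.108 without H-CM replicate 3) and H2-Ab1 in 2 (0.127 without TME-CM replicate 4). Gbp2, a guanylate-binding GTPase, measured 35.0, 106, 87.8 and 83.9 CPM in TME-CM replicates 1 to 4 and 32.6, 11.5, 14.2 and 9.13 CPM in the H-CM replicates (log2FC 2.17, SE 0.39, adjusted p = 0.0045, edgeR). TME-CM replicate 1 was just above the highest H-CM library, and the other TME-CM libraries were far above it. Psmb8, a subunit that converts the proteasome into the immunoproteasome, measured 21.0, 90.3, 71.2 and 72.5 CPM against 14.7, 8.23, 5.55 and 6.85 (log2FC 2.83, SE 0.40, adjusted p = 0.0005, edgeR). H2-K1, a class I heavy chain, measured 81.1, 245, 223 and 258 CPM against 72.9, 38.1, 44.9 and 28.5 (log2FC 2.10, SE 0.38, adjusted p = 0.00591, edgeR). In both genes TME-CM replicate 1 was again the lowest TME-CM library, close to H-CM replicate 1, while the same library was the highest for Saa1, Il6, Socs3 and Mt2. Reads shared by class I or Gbp paralogs were discarded, so the split among family members is uncertain.

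Iigp1, another interferon-gamma-induced GTPase, overlapped between the groups. It measured 66.5, 500.4, 459 and 331 CPM in TME-CM and 85.1, 66.1, 57.6 and 23.96 CPM in H-CM EGCs (log2FC 2.50, adjusted p = 0.0333, edgeR), and its call ended in 6 of the 8 leave-one-out fits, with adjusted p up to 0.105 without H-CM replicate 3, and in the fit of only the 2 media (adjusted p = 0.116, edgeR). B2m, the light chain of all class I molecules, lies at chr2:122147686-122153083 (plus strand) and measured 2420.1, 3679.8, 3707 and 4603 CPM against 3036, 2189, 1822 and 1851 (log2FC 0.70, SE 0.18, adjusted p = 0.0266, edgeR). Its groups overlapped, and its call ended in 6 of the leave-one-out fits, with adjusted p up to 0.111 without H-CM replicate 3, and with the share of counts on Yam1 as a covariate (adjusted p = 0.0876, edgeR). Gbp5 was called at a low level, 3.41, 5.23, 8.08 and 10.7 CPM against 2.04, 0, 0.123 and 0.571 (log2FC 3.44, SE 0.81, adjusted p = 0.0117, edgeR). It was lost without H-CM replicate 2, H-CM replicate 3 or TME-CM replicate 4 (adjusted p from 0.0531 to 0.0691, edgeR), and its log2FC was 5.43 without H-CM replicate 1. Psmb9, an immunoproteasome subunit that shares exon bases with Tap1, had 13.1 ± 5.69 CPM against 2.15 ± 1.78 (log2FC 2.57, and 3.32 without H-CM replicate 1), and Gbp3 had 52.9 ± 24.1 against 18.9 ± 8.54 (log2FC 1.48).

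On the broader list of interferon-stimulated genes, 3 of 23 genes tested rose (Zbp1, Parp14 and Ifitm3), none fell, and 22 of 23 had a positive log2FC (median 0.71). Parp14 was lost in 4 leave-one-out fits (adjusted p up to 0.122 without TME-CM replicate 3, edgeR). In H-CM against unstimulated EGCs the median of that list was 2.63. Ifitm3, a membrane protein that blocks virus entry, measured 2419.7, 2521, 3006 and 3353 CPM in TME-CM and 2081, 1323, 1236 and 1050.4 CPM in H-CM EGCs (log2FC 0.99, SE 0.17, adjusted p = 0.000861, edgeR), against 498 ± 46.4 CPM in unstimulated EGCs. Zbp1, a sensor of nucleic acids in the Z form, measured 8.13, 23.6, 20.6 and 19.4 CPM against 3.62, 0.732, 0 and 1.14 (log2FC 3.81, SE 0.67, adjusted p = 0.00154, edgeR), and its log2FC was 5.31 without H-CM replicate 1 and 3.20 without H-CM replicate 3. The 20 constitutive proteasome subunits tested held no call, with a median of 0.08.

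The promoters of B2m and Gbp5 are shown because each holds the ISRE-like and the kB motif within 150 bases. Both are RefSeq GRCm38.p6, plus strand, at chr2:122147536-122147685 and chr3:142496750-142496899, and capitals mark the matches in either direction, with a STAT match (TTCNNNGAA) as the last one in Gbp5.
B2m: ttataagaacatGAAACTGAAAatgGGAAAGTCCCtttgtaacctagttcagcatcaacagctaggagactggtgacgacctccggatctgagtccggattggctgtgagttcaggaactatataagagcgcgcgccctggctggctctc
Gbp5: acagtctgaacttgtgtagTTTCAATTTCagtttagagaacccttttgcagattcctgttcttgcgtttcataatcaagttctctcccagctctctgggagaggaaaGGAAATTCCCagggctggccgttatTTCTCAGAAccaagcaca

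**Figure D2:**
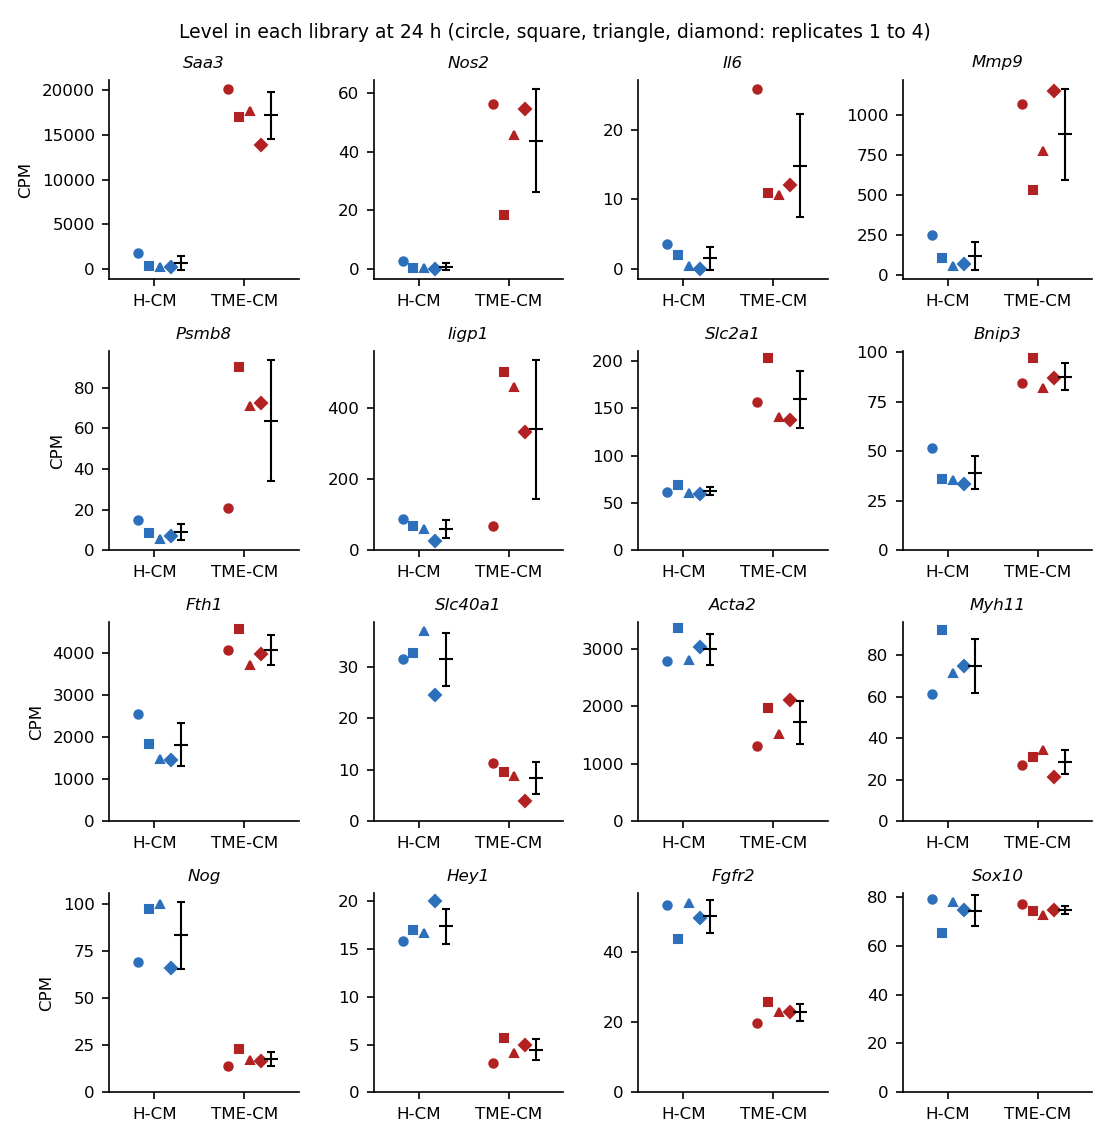
Level in CPM (vertical axis, linear) of 16 genes in the 4 H-CM (blue) and 4 TME-CM (red) libraries, with marker shapes for replicates 1 to 4 and a bar for mean ± SD. Nos2, Saa3 and Slc2a1 separate widely, TME-CM replicate 1 (circle) lies low for Psmb8 and Iigp1, and Sox10 lies at the same level in both media.

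Glycolytic genes and hypoxia targets rose, and none of either list fell. Of 22 genes of glycolysis and lactate transport, all tested, 10 rose (Slc2a1, Hk2, Pfkl, Pfkfb3, Tpi1, Pgk1, Pkm, Ldha, Slc16a1 and Slc16a3) and none fell, with a median of 0.43 that was 0.62 without H-CM replicate 1. Slc2a1, the glucose carrier GLUT1, lies at chr4:119108711-119137983 (plus strand) and measured 156, 203, 141 and 138 CPM against 61.6, 69.2, 60.2 and 59.3 (log2FC 1.34, SE 0.14, adjusted p = 3.93e-06, edgeR). The H-CM libraries lay within a narrow range, below every TME-CM library. Ldha, which turns pyruvate into lactate, measured 461, 543, 416 and 407 CPM against 245, 227, 219 and 214 (log2FC 1.01, SE 0.13, adjusted p = 2.04e-05, edgeR). Pgk1, the enzyme that makes the first ATP of glycolysis, had 229 ± 9.51 CPM against 129 ± 27.5 (log2FC 0.83, SE 0.15, adjusted p = 0.000944, edgeR). The lactate carriers had the largest changes of the 10. Slc16a1 measured 111, 58.0, 85.2 and 97.6 CPM against 34.9, 13.5, 24.8 and 26.2 (log2FC 1.85, SE 0.24, adjusted p = 5.22e-05, edgeR), and Slc16a3 measured 132, 142, 99.2 and 124 CPM against 57.5, 27.1, 29.2 and 44.5 (log2FC 1.67, SE 0.21, adjusted p = 4.37e-05, edgeR). Between H-CM and unstimulated EGCs, Slc2a1, Ldha and Pgk1 did not pass the test, with log2FC values of −0.02, 0.09 and 0.01 (adjusted p = 0.984, 0.899 and 0.993, edgeR).

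Of 18 hypoxia targets tested (21 listed), 12 rose (Adm, Bnip3, Egln1, Ndrg1, Ero1l, P4ha1, P4ha2, Bhlhe40, Pdk1, Higd1a, Plod2 and Lox) and none fell, with a median of 0.61. Of the 12, 7 were lost in leave-one-out fits, Higd1a in 7 (adjusted p up to 0.125 without TME-CM replicate 2), Pdk1 in 5 (0.135 without H-CM replicate 3), Ero1l in 4 (0.0739 without TME-CM replicate 1), Bhlhe40 in 3 (0.0827 without H-CM replicate 2), Ndrg1 in 2 (0.0842 without H-CM replicate 2), P4ha1 in 2 (0.0839 without H-CM replicate 3) and Egln1 in 1 (0.0536 without TME-CM replicate 1, edgeR). Vegfa, a defining target, did not pass (log2FC 0.40, adjusted p = 0.278, edgeR). Bnip3, a mitophagy receptor at chr7:138890836-138909519 (minus strand), measured 84.5, 97.3, 82.2 and 87.0 CPM against 51.6, 35.9, 35.5 and 33.7 (log2FC 1.15, SE 0.16, adjusted p = 5.22e-05, edgeR), with no overlap and with exon bases shared with Gm45507. P4ha2, a collagen prolyl hydroxylase, measured 126, 149, 114 and 136 CPM against 71.3, 62.9, 61.1 and 59.3 (log2FC 1.04, SE 0.15, adjusted p = 0.000127, edgeR). None of 25 nuclear-encoded genes of the respiratory chain passed the test (median 0.04), nor did any of the 13 mitochondrially encoded genes (median −0.12) or the 21 genes of the unfolded protein response (median 0.12). Oxygen and lactate in the cultures are not among the measurements analysed here.

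The promoters of Ldha and Bnip3 are shown as examples of glycolytic and hypoxia genes that hold the core of the element read by HIF factors (ACGTG), which reads CACGTG when it is present on both strands at once. They are RefSeq GRCm38.p6, at chr7:46845654-46845803 (plus strand) and chr7:138909520-138909669 (minus strand), with the matches in capitals.
Ldha: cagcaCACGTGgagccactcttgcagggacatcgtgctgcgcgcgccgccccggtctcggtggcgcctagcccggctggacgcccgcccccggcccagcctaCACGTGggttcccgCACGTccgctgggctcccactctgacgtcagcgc
Bnip3: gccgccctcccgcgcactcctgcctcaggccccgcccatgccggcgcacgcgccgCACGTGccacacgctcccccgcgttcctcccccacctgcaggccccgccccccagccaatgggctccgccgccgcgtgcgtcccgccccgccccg

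Genes of metal handling, oxidant defense and nitric oxide were among those that changed. Of 13 genes tested for metallothioneins, zinc and iron handling, 7 rose (Mt1, Mt2, Slc39a14, Fth1, Slc11a2, Cp and Steap4), 1 fell (Slc40a1) and the median was 0.95. Slc39a14 was lost without H-CM replicate 2 (adjusted p = 0.0507, edgeR). Mt2, a metal-binding metallothionein, measured 986, 733, 749.6 and 711 CPM against 205, 132, 125 and 139 (log2FC 2.40, SE 0.17, adjusted p = 1.44e-08, edgeR). Reads that map to several metallothionein genes were discarded. Fth1, the iron-storing heavy chain of ferritin, measured 4052, 4559, 3709 and 3958 CPM against 2533, 1823, 1475 and 1451 (log2FC 1.16, SE 0.19, adjusted p = 0.000893, edgeR). Slc40a1, the only known exporter of cellular iron, lies at chr1:45908068-45926523 (minus strand) and went the other way, with 11.2, 9.60, 8.84 and 3.997 CPM in TME-CM and 31.5, 32.8, 37.0 and 24.5 CPM in H-CM EGCs (log2FC −1.93, SE 0.26, adjusted p = 4.69e-05, edgeR). None of these 3 genes overlapped between the media. Fth1 has many processed copies in the genome, and reads that matched a copy were discarded.

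Sod2, the superoxide dismutase of mitochondria, measured 717, 678, 630.4 and 681 CPM against 184, 107, 98.4 and 106 (log2FC 2.44, SE 0.16, adjusted p = 9.13e-09, edgeR), the smallest adjusted p among the genes named here. On the list of NRF2 targets and antioxidant genes, 3 of 20 rose (Gstm1, Sod2 and Sod3) and 1 fell (Nqo1), with a median of 0.05. Gstm1, a glutathione transferase, had 194 ± 25.0 CPM against 66.3 ± 13.7 (log2FC 1.54, SE 0.15, adjusted p = 6.98e-07, edgeR). Of 7 genes tested for arginine, nitric oxide and kynurenine metabolism, 3 rose (Nos2, Gch1 and Odc1), with a median of 1.19. Nos2, the inducible nitric oxide synthase, lies at chr11:78920787-78960254 (plus strand) and measured 56.4, 18.3, 45.9 and 54.8 CPM in TME-CM against 2.49, 0.366, 0.123 and 0 CPM in H-CM EGCs (log2FC 5.88, SE 0.57, adjusted p = 7.43e-06, edgeR). It was below 1 CPM in each H-CM library but replicate 1, and its log2FC was 7.66 without that library. Gch1, which makes the cofactor that Nos2 needs, measured 35.8, 40.1, 38.4 and 35.2 CPM against 19.02, 7.50, 9.37 and 9.70 (log2FC 1.71, SE 0.26, adjusted p = 0.00023, edgeR). Odc1, the first enzyme of polyamine synthesis from ornithine, had 33.1 ± 5.31 CPM against 11.2 ± 3.55 (log2FC 1.501). Vnn1, an enzyme that releases vitamin B5 from pantetheine, was among the genes with the largest rise, from 4.24 ± 2.995 to 67.3 ± 9.87 CPM (log2FC 3.90, SE 0.47, adjusted p = 0.00016, edgeR).

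The fatty acid binding proteins moved in opposite directions. Fabp4, the form of adipocytes and macrophages, measured 55.4, 43.2, 62.3 and 40.5 CPM against 12.5, 11.7, 7.27 and 7.99 (log2FC 2.35, SE 0.26, adjusted p = 4.89e-06, edgeR). Fabp5, the epidermal form, had 145 ± 16.1 CPM against 72.2 ± 6.86 (log2FC 1.01, SE 0.14, adjusted p = 7.7e-05, edgeR). Fabp3, the heart form, whose exon bases overlap Zcchc17, measured 13.98, 14.8, 21.3 and 23.2 CPM against 35.8, 49.4, 50.2 and 46.2 and so was lower (log2FC −1.29, SE 0.20, adjusted p = 0.000283, edgeR). All 3 separated the groups.

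Secreted proteases, their inhibitors and growth factors formed another group of changes. Of 23 metalloproteinases and inhibitors tested, 6 rose (Mmp3, Mmp9, Mmp10, Mmp13, Adamts4 and Adamts9) and 2 fell (Mmp11 and Timp3), leaving a median of 0.07. Adamts9 was lost in 2 leave-one-out fits (adjusted p up to 0.0836 without H-CM replicate 2, edgeR). Mmp9, a gelatinase at chr2:164940780-164955850 (plus strand), measured 1068, 531, 773 and 1148 CPM against 249, 107, 56.9 and 65.6 (log2FC 2.87, SE 0.48, adjusted p = 0.00554, edgeR), and 3.52 on the log2 scale without H-CM replicate 1. Mmp3, a stromelysin, measured 654, 246, 362 and 569 CPM against 97.3, 29.5, 29.2 and 40.5 (log2FC 3.23, SE 0.44, adjusted p = 0.00114, edgeR), and 3.83 without the same library. Mmp13, a collagenase, had 81.4 ± 22.5 CPM against 16.1 ± 6.68 (log2FC 2.34, SE 0.31, adjusted p = 0.000125, edgeR). Each separated the media. Between H-CM and unstimulated EGCs, Mmp3 and Mmp13 rose by 2.93 and 2.23 on the log2 scale (adjusted p = 0.0111 and 0.00293, edgeR), and Mmp9 did not pass the test (log2FC 1.98, adjusted p = 0.0837, edgeR).

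Of 15 serpins and plasminogen activators tested, 6 rose (Serpina3g, Serpina3i, Serpina3n, Serping1 and Slpi among them) and none fell (median 0.29, and 0.51 without H-CM replicate 1). Serpina3f, not on that list and a member of a family of near-identical protease inhibitors, went from 1.81, 0.732, 0.74 and 0.571 CPM in H-CM to 16.4, 23.1, 33.1 and 33.3 CPM in TME-CM EGCs (log2FC 4.73, SE 0.39, adjusted p = 6.36e-08, edgeR). Serpina3n, its best-known member in glia, measured 115, 50.2, 67.2 and 49.3 CPM against 13.1, 8.42, 12.2 and 9.70 (log2FC 2.69, SE 0.38, adjusted p = 0.000523, edgeR). Slpi, an inhibitor of neutrophil elastase, measured 40.5, 19.6, 27.4 and 66.0 CPM against 4.53, 0.915, 0 and 0 (log2FC 4.82, SE 0.78, adjusted p = 0.00266, edgeR), and its log2FC was 6.77 without H-CM replicate 1 and 4.18 without H-CM replicate 3.

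Dcn, a small proteoglycan of the matrix, measured 2486, 2177, 2360.2 and 3215 CPM against 1031, 1060.2, 1037 and 1299 (log2FC 1.21, SE 0.13, adjusted p = 4.89e-06, edgeR), with no overlap, while unstimulated EGCs had 1104 ± 127 CPM. Of 13 genes of the IGF system, 4 rose (Igf1, Igfbp3, Igfbp4 and Igfbp7) and none fell, although the median of the list was −0.22. Igf1, a growth factor for glia and muscle, measured 146, 82.0, 120.1 and 84.7 CPM against 46.0, 49.0, 47.0 and 37.7 (log2FC 1.26, SE 0.19, adjusted p = 0.000254, edgeR). Igfbp4, which binds it, had 897 ± 91.4 CPM against 424 ± 73.7 (log2FC 1.08, SE 0.14, adjusted p = 3.96e-05, edgeR), and Igfbp3, another binding protein, had 168 ± 36.5 against 69.2 ± 32.2 (log2FC 1.29). Ereg, a ligand of the EGF receptor, measured 44.4, 23.1, 40.4 and 39.6 CPM against 15.4, 6.59, 3.70 and 9.13 (log2FC 2.15, SE 0.33, adjusted p = 0.000322, edgeR). U90926, a transcript of unassigned function, was among the genes with the largest rise, with 97.8 ± 13.3 CPM against 4.44 ± 4.63 (log2FC 4.43, and 5.34 without H-CM replicate 1). Tnfrsf9, the costimulatory receptor 4-1BB, had 12.7 ± 3.54 CPM against 1.07 ± 1.15 (log2FC 4.0004, 4.96 without H-CM replicate 1 and 3.36 without H-CM replicate 3).

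Some adhesion molecules, TNF family receptors and secreted factors rose. Of 20 adhesion molecules and syndecans tested, 3 rose (Vcam1, Sdc1 and Sdc4) and none fell, or 15% called against 5.40% of all genes tested (median 0.09). Vcam1, which holds leukocytes to the cells that display it, measured 33.3, 30.5, 38.6 and 56.7 CPM against 18.1, 20.7, 11.3 and 14.3 (log2FC 1.31, SE 0.23, adjusted p = 0.000971, edgeR), with exon bases shared with Gm43109. Sdc1, a heparan sulfate proteoglycan, measured 131, 129.6, 111 and 110.2 CPM against 45.3, 59.5, 56.8 and 46.2 (log2FC 1.20, SE 0.15, adjusted p = 1.98e-05, edgeR). Both separated the media, while Sdc4 overlapped (174, 155, 164 and 212 CPM against 166, 84.0, 70.9 and 69.6, log2FC 0.85, adjusted p = 0.0423, edgeR), and its call ended in 7 of the 8 leave-one-out fits, with adjusted p up to 0.139 without H-CM replicate 2. Of 16 members of the TNF receptor family and its ligands tested, 4 rose (Tnfsf15, Tnfrsf9, Fas and Cd40) and none fell (median 0.22). Cd40, a costimulatory receptor of antigen-presenting cells, measured 22.9, 42.3, 32.8 and 40.5 CPM against 15.8, 12.6, 12.6 and 12.6 (log2FC 1.35, SE 0.22, adjusted p = 0.000524, edgeR). Fas, a death receptor, had 11.9 ± 4.74 CPM against 3.50 ± 1.28 (log2FC 1.78, adjusted p = 0.031, edgeR), and its call ended in 6 of the leave-one-out fits, with adjusted p up to 0.133 without H-CM replicate 2. Of 9 colony-stimulating and macrophage factors tested, 3 rose (Spp1, Mif and Pdgfa) and 1 fell (Gas6), with a median of 0.48. Mif was lost in 5 leave-one-out fits (adjusted p up to 0.135 without H-CM replicate 3, edgeR). Spp1, the secreted phosphoprotein osteopontin, measured 432, 362, 311 and 281 CPM against 232, 167, 148 and 195 (log2FC 0.91, SE 0.21, adjusted p = 0.0125, edgeR), a call lost without H-CM replicate 2 or H-CM replicate 3 (adjusted p = 0.0507 and 0.0527, edgeR). Pdgfa, a ligand of the PDGF receptor, had 193 ± 26.6 CPM against 107 ± 11.1 (log2FC 0.84, SE 0.13, adjusted p = 0.000242, edgeR). Gas6, the bridge between dying cells and receptors of phagocytes, had 289 ± 35.0 CPM against 435 ± 72.5 (log2FC −0.59, SE 0.13, adjusted p = 0.00734, edgeR) and was lower in TME-CM EGCs without overlap.

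Of 16 immediate early genes tested, 3 rose (Fosl2, Junb and Ier3) and 1 fell (Klf2), with a median of 0.15. Fosl2 was lost in 4 leave-one-out fits (adjusted p up to 0.0895 without H-CM replicate 2, edgeR). Ier3, an early response gene that NF-kB induces, measured 851, 579, 692 and 744 CPM against 289.8, 235, 212 and 215 (log2FC 1.59, SE 0.13, adjusted p = 9.5e-08, edgeR), and H-CM lay above unstimulated EGCs by 1.06 on the log2 scale. Klf2, a Kruppel-like factor, measured 40.2, 60.2, 39.3 and 56.1 CPM against 77.0, 92.0, 77.9 and 70.7 (log2FC −0.72, SE 0.15, adjusted p = 0.00416, edgeR). Junb, an AP-1 subunit, had 99.6 ± 8.66 CPM against 66.9 ± 13.2 (log2FC 0.58, adjusted p = 0.0201, edgeR), and its call ended in 5 of the 8 leave-one-out fits, with adjusted p up to 0.112 without H-CM replicate 3. Of 22 genes of cholesterol synthesis, 2 were called higher (9.09% against 5.40% of all genes tested), both close to the threshold. Fdps, a synthase of the sterol route, had 42.9 ± 6.32 CPM against 27.2 ± 4.57 (log2FC 0.66, adjusted p = 0.0444, edgeR) and was lost in 8 of 8 such fits. Stard4, a sterol carrier, had 43.6 ± 11.2 CPM against 28.3 ± 5.06 (log2FC 0.67, adjusted p = 0.0495, edgeR) and was lost in 6.

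Of 21 genes of G2, M phase and mitosis tested, 2 rose (Birc5 and Ube2c), or 9.52% against 5.40% of all genes tested. All 21 had a positive log2FC (median 0.54), against 6433 of all 12713 genes tested. The groups did not overlap for 3 of the 21, and for 11.2% of all genes tested. Their summed level overlapped, at 758 to 1659 CPM in TME-CM and 740 to 928 CPM in H-CM libraries. Birc5 was lost in 7 of the 8 leave-one-out fits (adjusted p up to 0.231 without TME-CM replicate 4, edgeR) and in the fit of only the 2 media. Ube2c, which feeds the anaphase-promoting complex, had 59.5 ± 13.2 CPM against 28.7 ± 5.87 (log2FC 1.07, SE 0.20, adjusted p = 0.00187, edgeR). Of 21 genes of G1, S phase and replication, 3 were called, or 14.3%. Tyms, the thymidylate synthase, was higher (30.8 ± 6.97 CPM against 15.0 ± 4.37, log2FC 1.02), and the cyclins Ccnd1 and Ccnd2 were lower. Ccnd1 was lost in 5 leave-one-out fits (adjusted p up to 0.118 without H-CM replicate 4, edgeR) and without the filter on low counts. Ccnd2, a D-type cyclin, measured 1275, 1377, 1451 and 1501 CPM against 1704, 2071, 1952 and 1945 (log2FC −0.45, SE 0.12, adjusted p = 0.0284, edgeR). Its change was small, and its call ended in 5 of the 8 leave-one-out fits, with adjusted p up to 0.121 without H-CM replicate 2. Slc6a6, the taurine carrier, was another abundant lower gene with a small change, 950.5 ± 69.7 CPM against 1309 ± 132 (log2FC −0.46, adjusted p = 0.03, edgeR), and was lost in 4 of those fits, with adjusted p up to 0.142 without H-CM replicate 2.

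**Figure D3:**
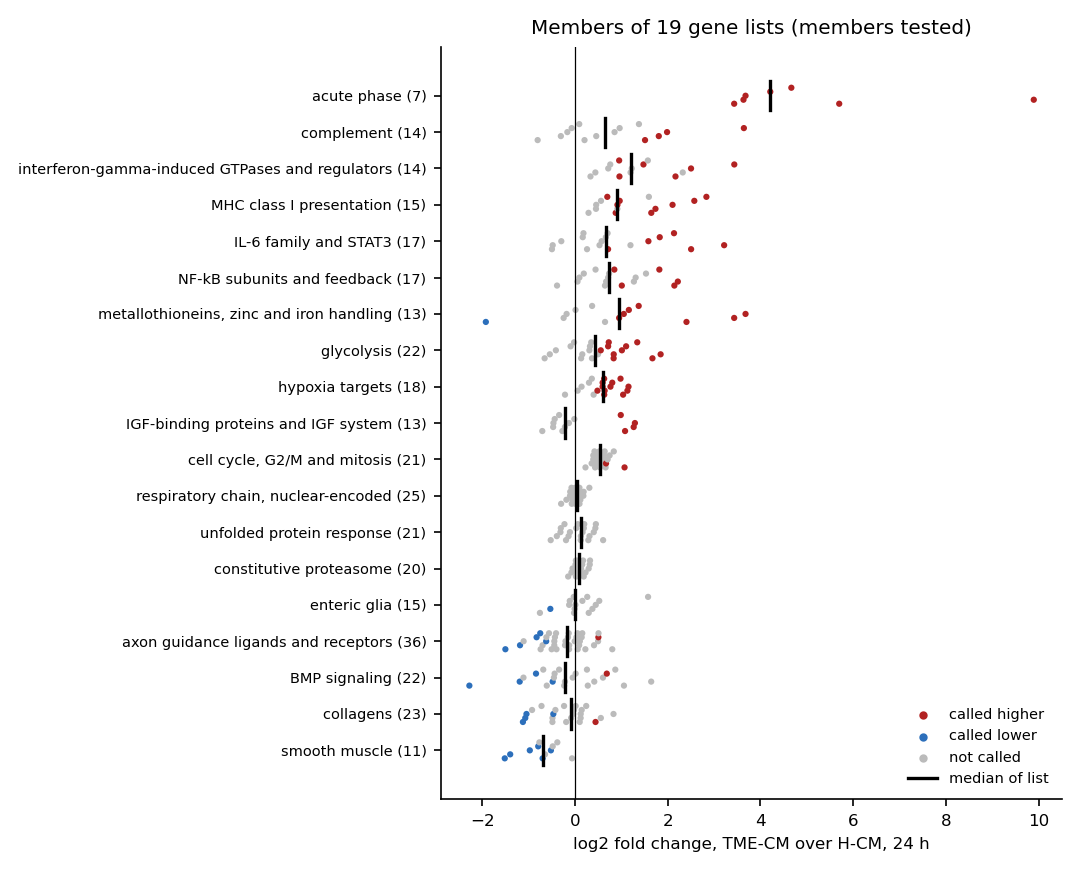
Members of 19 gene lists by log2FC of TME-CM over H-CM (horizontal axis), 1 point per gene tested, in red where called higher, blue where called lower and gray otherwise, with a black bar at the list's median. The acute phase list has the median farthest to the right, where the point of Saa2 again rests on the prior count, and smooth muscle genes lie to the left of 0.

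Among the lower genes, some were regulators of bone morphogenetic proteins (BMPs). Of 22 genes of BMP signaling tested, 4 fell (Id2, Nog and Bambi among them), 1 rose (Grem1) and the median was −0.23. Id2 was lost in 4 leave-one-out fits (adjusted p up to 0.188 without H-CM replicate 2, edgeR). Nog, the antagonist noggin, lies at chr11:89300638-89302332 (minus strand) and measured 13.98, 23.1, 17.2 and 16.6 CPM in TME-CM against 69.5, 97.5, 100.1 and 66.2 CPM in H-CM EGCs (log2FC −2.28, SE 0.22, adjusted p = 2.01e-06, edgeR). The media did not overlap, and Nog did not pass the test between H-CM and unstimulated EGCs (log2FC −0.12, adjusted p = 0.929, edgeR). Bambi, a receptor decoy that damps the same pathway, had 14.5 ± 2.61 CPM against 25.6 ± 0.951 (log2FC −0.84, SE 0.20, adjusted p = 0.00987, edgeR), a call lost without TME-CM replicate 1 (adjusted p = 0.0513, edgeR). Grem1, another secreted antagonist, was higher, so noggin and Grem1 did not share one direction.

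Hey1, Fgfr2 and Npr3 were other lower genes with known parts in development or signaling. Hey1, a repressor that Notch induces, measured 3.09, 5.67, 4.12 and 4.95 CPM against 15.8, 17.0, 16.6 and 19.97 (log2FC −1.99, SE 0.29, adjusted p = 0.000139, edgeR). It was the only one of 11 Notch genes tested to pass (9.09% against 5.40% of all genes tested). Fgfr2, a receptor for fibroblast growth factors, measured 19.7, 25.7, 22.7 and 22.8 CPM against 53.2, 43.6, 53.9 and 49.6 (log2FC −1.15, SE 0.16, adjusted p = 6.1e-05, edgeR), and was the 1 gene of 18 on the list of FGF, EGF and MAPK feedback to fall, while Ereg and Errfi1 rose, the latter lost in 2 leave-one-out fits (adjusted p up to 0.0674 without H-CM replicate 3, edgeR). Of 22 genes of WNT signaling tested, 1 rose (Rspo3) and none fell, or 4.55% called against 5.40% of all genes tested. Npr3, the clearance receptor of natriuretic peptides, measured 8.78, 20.9, 14.5 and 11.8 CPM against 40.1, 52.7, 54.4 and 39.9 (log2FC −1.81, SE 0.22, adjusted p = 1.98e-05, edgeR). The highest TME-CM library of each was below the lowest H-CM library. Of 36 ligands and receptors of axon guidance tested, 5 fell (Sema5a, Sema6d, Plxna2, Plxna4 and Epha7), 1 rose (Efna5) and the median was −0.18. Efna5 was lost in 7 leave-one-out fits (adjusted p up to 0.148 without TME-CM replicate 1, edgeR), Sema5a in 6 (0.214 without H-CM replicate 3), Sema6d in 6 (0.121 without H-CM replicate 3), Plxna2 in 3 (0.0712 without H-CM replicate 2) and Epha7 in 1 (0.0536 without TME-CM replicate 4). Plxna4, a semaphorin receptor, had 9.997 ± 3.92 CPM against 29.4 ± 3.71 (log2FC −1.50, SE 0.25, adjusted p = 0.000524, edgeR). Sox9, a factor of glial progenitors, measured 56.9, 46.2, 64.6 and 77.6 CPM against 108, 100.5, 98.6 and 106 (log2FC −0.74, SE 0.17, adjusted p = 0.0081, edgeR), while unstimulated EGCs had 60.4 ± 13.5 CPM and H-CM lay above them by 0.76 on the log2 scale. Sox4, another SRY-box factor, had 859 ± 67.8 CPM against 1144 ± 89.9 (log2FC −0.41, adjusted p = 0.0302, edgeR), and was lost in 5 of the 8 leave-one-out fits (adjusted p up to 0.134 without H-CM replicate 3) and without the filter on low counts (adjusted p = 0.0581, edgeR).

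Kcnmb2 and Nptx1 had the most negative log2FC values among called genes of at least 5 CPM. Kcnmb2, a subunit of large-conductance potassium channels, measured 0.488, 3.93, 1.52 and 0.761 CPM against 10.9, 20.3, 31.2 and 10.3 (log2FC −3.77, SE 0.53, adjusted p = 0.000212, edgeR). Nptx1, a neuronal pentraxin of synapses, measured 1.46, 0, 0.305 and 1.33 CPM against 8.38, 6.405, 13.1 and 18.8 (log2FC −3.66, SE 0.53, adjusted p = 0.000125, edgeR). Both were low in every TME-CM library. Neither could have passed the filter on low counts through its TME-CM libraries, so a low level there was partly a condition of their being tested. Adcy1, a calcium-stimulated adenylate cyclase, had 2.88 ± 1.10 CPM against 12.2 ± 5.36 (log2FC −2.06), and Sptb, an erythrocyte and muscle spectrin that shares exon bases with Plekhg3, had 2.11 ± 1.68 against 11.1 ± 3.95 (log2FC −2.25). Wscd2, Gm16010, Lrtm1 and Sprr1a, a marker of injured neurons and of cornified epithelium, had log2FC values of −2.44, −2.20, −1.88 and −1.90. Of 19 potassium channel genes tested, 2 fell (Kcnh2 and Kcnmb2), or 10.5% called against 5.40% of all genes tested. On that list 4 had a positive log2FC, against 6433 of all 12713 genes tested, and the median was −0.48. Of 18 neuronal genes tested, Nefm, a neurofilament, was lower (13.98, 4.36, 10.2 and 13.1 CPM against 22.0, 21.4, 50.4 and 62.2, log2FC −1.80, adjusted p = 0.0148, edgeR). That call was lost without H-CM replicate 3 or TME-CM replicate 3 (adjusted p = 0.0540 for each, edgeR), and part of its exon bases overlap Nefl. Cartpt, a neuropeptide precursor, was higher (45.7, 59.3, 39.9 and 22.5 CPM against 11.8, 12.6, 10.1 and 9.13, log2FC 1.90, adjusted p = 4.64e-05, edgeR), as was Hand2, and the median of the list was −0.09. Dbp, an output gene of the circadian clock that shares exon bases with Sphk2, measured 21.1, 17.4, 17.7 and 18.1 CPM against 37.8, 36.4, 37.5 and 34.2 (log2FC −0.97, SE 0.19, adjusted p = 0.00218, edgeR). Tef, a related factor, fell too among 14 clock genes tested, of which 14.3% were called against 5.40% of all genes tested. The call of Tef was lost in 7 of the 8 leave-one-out fits (adjusted p up to 0.2 without H-CM replicate 3, edgeR).

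Smooth muscle genes held the most decreases of the cell-type lists. Of 11 tested, 6 fell (Acta2, Myh11, Cnn1, Des, Synpo2 and Mylk), none rose and the median was −0.70. Acta2, the actin of smooth muscle and of myofibroblasts, lies at chr19:34241090-34255590 (minus strand) and was the most abundant lower gene, with 1309, 1967, 1516 and 2113 CPM in TME-CM against 2785, 3364, 2801 and 3029.6 CPM in H-CM EGCs (log2FC −0.80, SE 0.14, adjusted p = 0.000708, edgeR). Myh11, the smooth muscle myosin, measured 27.3, 31.0, 34.6 and 21.1 CPM against 61.3, 92.4, 71.5 and 74.7 (log2FC −1.40, SE 0.24, adjusted p = 0.0017, edgeR). Des, the intermediate filament desmin, had 37.8 ± 5.30 CPM against 74.6 ± 13.2 (log2FC −0.98, SE 0.15, adjusted p = 0.000274, edgeR). The media did not overlap for these 3 genes. H-CM EGCs in turn lay below unstimulated EGCs, which had 6503 ± 337 CPM of Acta2, 167 ± 64.2 of Myh11 and 149 ± 12.9 of Des (log2FC values −1.12, −1.16 and −1.005). The summed level of the 11 genes ran from 3096 to 4258 CPM in TME-CM, from 5272 to 6867 in H-CM and from 11069 to 13146 in unstimulated libraries. Mylk, the myosin light chain kinase, had 1032 ± 109.7 CPM against 1481 ± 261 (log2FC −0.52), and Cnn1, a calponin whose libraries overlapped, had 50.4 ± 15.3 against 80.7 ± 17.1 (log2FC −0.70). Each was lost in 5 of the 8 leave-one-out fits, with adjusted p up to 0.175 and 0.144 without H-CM replicate 2 (edgeR).

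Markers of other cell types were at lower or mixed levels. Of 4 markers of interstitial cells of Cajal tested, 2 fell, none rose and 1 had a positive log2FC (median −0.63). The summed level of the list overlapped, at 186 to 392 CPM in TME-CM and 220 to 357 in H-CM libraries. Ano1, the calcium-activated chloride channel of these pacemaker cells, measured 30.9, 54.1, 55.8 and 24.9 CPM against 86.7, 119, 105 and 66.2 (log2FC −1.22, SE 0.25, adjusted p = 0.00634, edgeR). Kit, the receptor for stem cell factor, measured 13.98, 13.5, 18.6 and 5.71 CPM against 40.5, 32.6, 31.4 and 19.97 (log2FC −1.28, SE 0.34, adjusted p = 0.0322, edgeR), its call ending in 6 of the 8 leave-one-out fits, with adjusted p up to 0.0856 without H-CM replicate 2. Of 9 fibroblast markers tested, 4 rose (Pdgfra, Lum, Dcn and Twist2) with a median of −0.31, and their summed level, mostly Dcn, was 2629 to 3612 CPM in TME-CM and 1349 to 1651 in H-CM libraries. Lum was lost in 2 leave-one-out fits (adjusted p up to 0.0588 without H-CM replicate 4, edgeR). Of 23 collagens tested, 1 rose (Col3a1) and 4 fell (Col6a3, Col8a2, Col14a1 and Col18a1). Col3a1 was lost in 7 leave-one-out fits (adjusted p up to 0.155 without TME-CM replicate 1, edgeR), Col18a1 in 6 (0.0917 without H-CM replicate 3) and Col8a2 in 4 (0.0932 without H-CM replicate 3). Col6a3 had 112 ± 34.0 CPM against 247 ± 28.3 (log2FC −1.13, SE 0.25, adjusted p = 0.0133, edgeR), a call lost without TME-CM replicate 4 (adjusted p = 0.0536, edgeR), and Col14a1 had 15.4 ± 6.16 against 33.2 ± 7.91 (log2FC −1.05). Kdr, the VEGF receptor of endothelium, fell from 45.5 ± 13.6 to 14.3 ± 7.29 CPM (log2FC −1.65, SE 0.30, adjusted p = 0.00203, edgeR), the 1 call among 4 endothelial markers, whose sum was 13.98 to 34.1 CPM in TME-CM and 39.4 to 81.0 in H-CM libraries.

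Of the immune cell markers tested, only S100a8 was called. None of 14 macrophage and monocyte markers tested passed, and their sum overlapped, at 101 to 492 CPM in TME-CM and 99.8 to 447 in H-CM libraries, with Lyz2 as the main contributor. Of 8 neutrophil markers 3 were tested and S100a8, a calcium-binding protein also made by inflamed stromal cells, rose from 2.49, 2.56, 2.22 and 2.28 CPM in H-CM to 36.6, 22.2, 13.7 and 24.2 CPM in TME-CM EGCs (log2FC 3.33, SE 0.37, adjusted p = 4.89e-06, edgeR), while Ly6g was at 0 in all 8 libraries. T and B cell markers summed to at most 11.3 CPM and epithelial markers to at most 8.26 CPM, and Cd8a, Trac, Cd79a, Krt8, Vil1 and the endothelial Cldn5 had no count in any of the 8. The part of these cell types in the changes above was not tested.

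Of 15 marker genes of enteric glia tested, 1 fell (Cryab) and none rose, or 6.67% called against 5.40% of all genes tested. The median was 0.01, with sums of 793 to 941 CPM in TME-CM and 934 to 1024 in H-CM libraries. Sox10, the factor that keeps glial identity, measured 76.9, 74.2, 72.7 and 74.6 CPM against 79.2, 65.3, 77.9 and 74.7 (log2FC 0.01, SE 0.14, adjusted p = 0.991, edgeR). The TME-CM libraries lay inside the range of the H-CM libraries. S100b, the calcium-binding protein used to stain glia, measured 59.3, 75.9, 54.6 and 29.7 CPM against 63.4, 107, 116 and 77.0 (log2FC −0.76, SE 0.24, adjusted p = 0.0847, edgeR), and passed without H-CM replicate 1 (log2FC −0.90, adjusted p = 0.0247, edgeR) or without TME-CM replicate 2 (−0.94, adjusted p = 0.0305, edgeR). Gfap was low in both media (4.63 ± 2.32 CPM against 3.59 ± 0.841, log2FC 0.45, adjusted p = 0.701, edgeR). Cryab, a small heat shock protein that shares exon bases with Hspb2, measured 143, 223, 162 and 183 CPM against 239, 249.8, 263 and 274 (log2FC −0.53, SE 0.14, adjusted p = 0.0204, edgeR), and its call ended in 5 of the 8 leave-one-out fits, with adjusted p up to 0.0959 without TME-CM replicate 1. None of 15 neurotrophic factors and receptors tested passed (median 0.05). Artn, a ligand of the RET receptor family, had 8.78, 9.60, 10.5 and 5.14 CPM against 0.679, 6.04, 2.34 and 1.71 (log2FC 1.57, adjusted p = 0.106, edgeR), and passed without H-CM replicate 2 (log2FC 2.36, adjusted p = 0.0259, edgeR).

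The same comparison of media at 12 h used other libraries and called 230 genes (1.89% of 12156 tested). Of the 686 genes called at 24 h, 667 were tested at 12 h and 640 had the same sign there. Calls at both times numbered 175, or 25.5% of those of 24 h and 76.1% of those of 12 h, and all 175 agreed in sign. Genes called at both times included Mt2 (log2FC 2.40 at 24 h and 2.52 at 12 h), Sod2 (2.44 and 2.71), Socs3 (2.13 and 2.14), Slc2a1 (1.34 and 1.64) and Dcn (1.21 and 1.18). Nptx1 was called at 24 h and not at 12 h (−3.66 and −1.14), as was Acta2 (−0.80 and −0.37). A test of the change itself from 12 h to 24 h, in one edgeR model of 16 libraries, called 0 of 12702 genes (0%). At an unadjusted p under 0.05 there were 358, and DESeq2 also called 0, with 457 at an unadjusted p under 0.05, so a change of any single gene's response between the times was not shown.

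**Figure D4:**
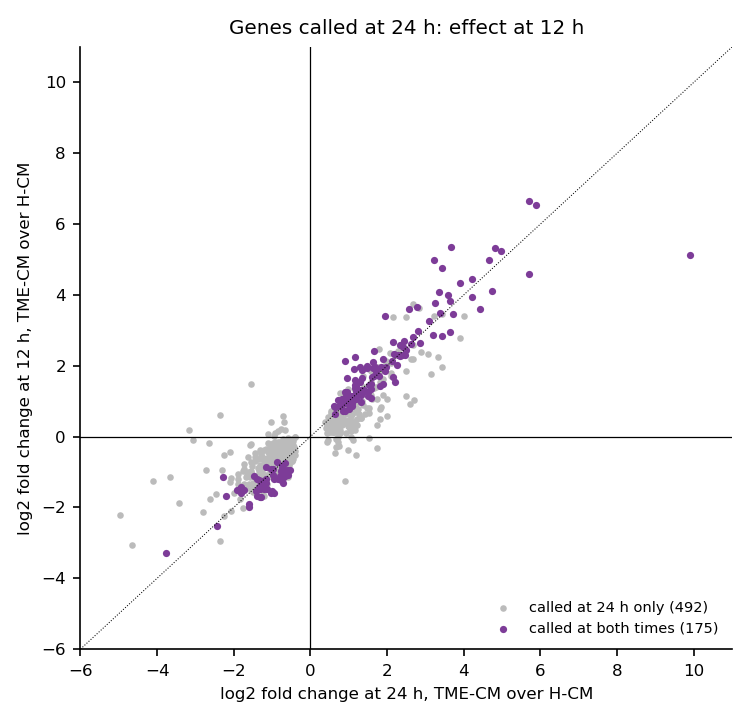
Log2FC of TME-CM over H-CM at 24 h (horizontal axis) and at 12 h (vertical axis) for the genes called at 24 h and tested at both times. Purple points, called at both times, all lie in the quadrants of equal sign, and the dotted line marks equal change. The 24 h value of Saa2 rests on the prior count of the fit.

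Motifs were counted in RefSeq promoters, 300 bases around each start site, on both strands, as a description of the sequences and not of binding. Of 318 promoters of genes that were higher, 7.23% held the kB motif, against 0.875% of 343 promoters of lower genes, 1.53% of 11164 promoters of genes that did not pass and 1.63% of all 32851 promoters. The ISRE-like motif was in 6.60%, 2.04%, 2.91% and 3.44% of the same sets, and the C/EBP motif in 15.4%, 5.54%, 7.97% and 10.8%. The STAT motif was in 9.12%, 6.71%, 6.52% and 8.30%. The HIF core ACGTG was in 24.8%, 19.5%, 25.4% and 19.6%, so that genes that did not pass held it at the highest share, and the CArG element of smooth muscle genes was in 1.89%, 1.75%, 1.34% and 1.63%. Within single lists, C/EBP matches were in 5 of 6 promoters of the acute phase genes that rose, which were also all those tested. ACGTG was in 9 of 13 promoters of the glycolytic genes that rose and in 17 of 33 of those tested. The ISRE-like motif was in 3 of 7 promoters of the interferon-gamma-induced genes that rose and in 8 of 15 of those tested. The kB motif was in 1 of 4 promoters of the NF-kB list genes that rose, that of Nfkbia, and in 8 of 17 of those tested. CArG was in 0 of 5 promoters of the smooth muscle genes that fell and in 1 of 8 of those tested. Promoters of one gene can overlap, so these counts are not independent.

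**Figure D5:**
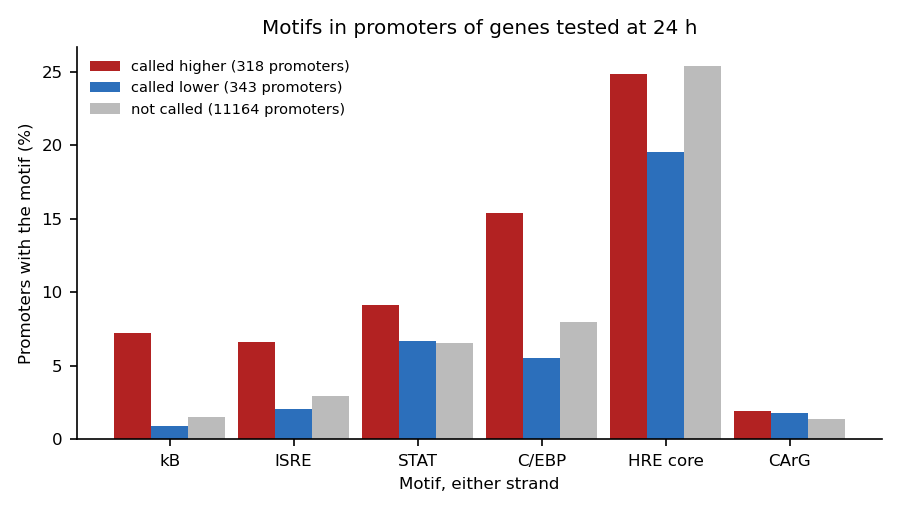
Share of promoters (percent, from 0) that hold each of 6 motifs on either strand, for genes called higher (red), lower (blue) and not called (gray). The kB, ISRE, STAT, C/EBP and CArG motifs have their highest bar in the genes called higher, by a small margin for CArG. For ACGTG (HRE core) the bar of genes not called is the highest.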

How the data were processed

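The series holds 36 libraries of EGC RNA made with the QuantSeq 3′ kit. Per the labels and the study's methods, the authors checked reads with FastQC 0.11.7, trimmed adapters with fastq-mcf, aligned them to mm10 with HISAT2, used SAMtools 1.5 and counted reads per gene with HTSeq, and discarded reads that mapped to several places. The strand setting and the gene annotation used in counting are not given in the sources used here. The deposited values are raw counts for 43472 genes, with 0 columns that match no sample, and have no molecular identifiers. Total counts at 24 h ran from 1608020 to 7552510.

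The 12 libraries of 24 h (4 per medium) were fitted with the quasi-likelihood test of edgeR 4.0.16 (limma 3.58.1, R 4.3.3) after filterByExpr with a minimum count of 10, TMM scaling and one mean per group. The filter keeps a gene that reaches this count in a single group. Genes near 0 in H-CM and unstimulated EGCs, Chil1, Slpi, Nos2, Zbp1 and Gbp5 among them, were therefore tested only through their TME-CM level. Their rise was a condition of the test. In H-CM EGCs, Il6, Serpina3f and Tnfrsf9 also lay near or below the level that the filter asks for. A rise may likewise have been a condition of their being tested. A gene was called at a Benjamini-Hochberg adjusted p under 0.05. SE is the log2 fold change divided by the root of the F statistic. CPM use TMM-scaled library sizes, and mean ± SD is over n = 4 libraries. Library measures were compared by an exact permutation test. The fit was tested on simulated data. Alternatives were DESeq2 1.42.0, its size factors, no filter, other sets of libraries, a replicate block, Yam1 removed or as a covariate, and each library left out in turn.

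The comparison, the gene lists and the genes named were chosen with earlier results of these data known. Genes were named where they had the 12 highest or 12 lowest log2 fold changes among called genes of at least 5 CPM without overlap, or were the 5 most abundant called genes of a direction, or up to 3 called genes per list, or markers of enteric glia. For genes named by the first of these rules, such as Hey1, Npr3, Nog, Slc40a1, Nos2 and Chil1, the lack of overlap was a condition and not a result. Chemokine ligands, Lcn2 and Timp1 were set aside. Lbp, Nfkbia, Gbp5, Ldha, Pgk1, Cnn1, Kdr, S100a8 and Vegfa were chosen after their values were seen, as were genes named only as called or undetected members of a list. Gene positions are those of GRCm38 in GENCODE vM21. Part of the exon bases of Sox4, Npr3, Fgfr2, Ube2c, Plxna4, Ereg, Des, Slc2a1, Mt2, Psmb8, Gm16010, Spp1, Pdgfa, Gas6, Fdps, Junb, Slpi, Gbp2, Fabp3, Ccnd2, Mylk and Slc6a6 lie in another annotated gene, as stated beside other genes in the text, and without the strand setting such reads cannot be told apart. Promoters (RefSeq, GRCm38.p6, 250 bases before to 50 after each start) matched 9172 of the genes tested, with 11825 promoters. A few genes of the lists and of the rule for named genes are not reported here by name and stay in the counts.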

Additional observations from a re-analysis of the deposited data

Results flagged for a closer look

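For each gene described with values, the 4 libraries of a medium were searched for 1 library far from the other 3, by the gap to its nearest neighbor as a share of the whole range. Of 232 sets of 4 libraries, 26 passed Dixon's critical value, which chance passes in about 1 set of 20. H-CM replicate 1 was the library in 16 of the 26, each time above the other H-CM libraries for a gene that was higher in TME-CM EGCs. Its values were 1815 CPM for Saa3, 10.4 for Steap4, 7.02 for Lbp, 31.0 for C3, 97.3 for Mmp3, 26.0 for Mmp13, 59.1 for Nfkbiz, 21.3 for Bcl3, 2.49 for Nos2, 14.7 for Ptges, 51.6 for Bnip3, 184 for Sod2, 1.81 for Serpina3f, 31.7 for Gbp3, 166 for Sdc4 and 15.8 for Cd40. Its total count was 4292800, within the range of the H-CM libraries. The cause was not tested.

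TME-CM replicate 1 stood above the other TME-CM libraries for Saa1 (66.0 CPM), Il6 (25.9 CPM), Socs3 (95.6 CPM) and Mt2 (986 CPM), and above them for Dbp (21.1 CPM). TME-CM replicate 2 stood apart for Il1r1 (42.8 CPM) and Gstm1 (232 CPM) and in the share of counts on Yam1 (35.1%). TME-CM replicate 3 was high for Lbp (62.0 CPM), and H-CM replicate 4 was the highest H-CM library for Dcn (1299 CPM).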

How the results depend on the processing

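The number of genes called between TME-CM and H-CM at 24 h moved most with the libraries that entered the fit. One model of all 36 libraries called 71 genes (60 higher and 11 lower). The share of counts on Yam1 as a covariate gave 981 genes, of which 517 were lower. The lowest count with 1 library left out was 417, when H-CM replicate 3 was absent, and the highest 776, when H-CM replicate 1 was absent, with 228 to 412 higher and 189 to 364 lower, and 451 without H-CM replicate 2. DESeq2 called 903, no filter on low counts 896, DESeq2 size factors 687, removal of Yam1 691 and the fit of only the groups compared 670. With the replicate block 675 genes were called, 622 of them shared. Same-numbered libraries had correlations of their deviations of −0.013, 0.067, 0.1005 and 0.022, and not every library correlated best with its own number, so the numbers were not taken as pairs. Calls of 109 genes described with values were all kept under DESeq2, its size factors and removal of Yam1, and 90 were kept in all 8 fits without 1 library. The replicate block ended 3 of them, B2m (adjusted p = 0.0589), Iigp1 (0.0585) and Stard4 (0.0617, edgeR). Of genes named only in lists, the block also ended Tap1, Tapbp, Erap1, Col3a1 and Efna5, the fit of only the groups compared Tap1, Tapbp, Sema5a, Sema6d, Birc5 and Col3a1, the Yam1 covariate Tap1 and Tapbp, and no filter Ccnd1 and Efna5. The model of all 36 libraries ended 164 of 205 calls of list members and genes chosen by rule. Among these were every called hypoxia target and smooth muscle gene, and every called glycolysis gene but Slc2a1. The other comparisons moved too. H-CM against unstimulated EGCs gave 258 genes, 446 without the filter, 410 by DESeq2 and 161 to 250 without 1 library. The media at 12 h gave 465, 383 and 137 to 297 in place of 230. Among genes described with values, signs turned for glial markers near 0. Sox10 was at −0.000837 in the fit of only the groups compared and ran from −0.053 to 0.039 without 1 library. Cdh19 was at 0.021 with the Yam1 covariate and ran from −0.17 to 0.11 without 1 library, and Erbb3 was at 0.012 and ran from −0.19 to 0.12. Ngfr ran from −0.11 to 0.060 and Sox2 from −0.22 to 0.015. Without 1 library, the difference in total count ran from −641573 to 1339920 (−21470.8 without TME-CM replicate 3), that in percent of counts on Yam1 from −1.66 to 5.48, and that on mitochondrially encoded genes from −0.688 to −0.415. Medians of lists near 0 turned sign too without 1 library, from −0.22 to 0.065 for neuronal genes, −0.0034 to 0.197 for metalloproteinases, −0.014 to 0.082 for NRF2 targets, −0.0073 to 0.196 for neurotrophic factors, −0.059 to 0.051 for the respiratory chain and −0.023 to 0.116 for enteric glia. The causes were not tested. H-CM replicate 4 had the lowest total, so a count of 0 limits least there, and intervals and limits from a count of 0 cover counting error only.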
